A study of Mus musculus with 102 samples.

Results

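Calorie restriction (CR) was set against control diet in epidermal stem cells of aged mice at a single time of day, zeitgeber time (ZT) 0 h, the start of the light phase. All arrays labelled with this time and with an age of 83 to 97 weeks were used: 5 of CR mice and 4 of mice on control diet, 9 of the series' 49 arrays of aged mice and 53 arrays of adult mice. The series measured gene expression in these cells in mice of 2 age groups, 2 diets and 6 times of day on Affymetrix mouse arrays. All mice, both groups here included, were C57B6/J mice with the Per1-Venus BAC transgene, in which Venus fluorescence follows the activity of Per1. Restricted mice received 30% less food than the control mice ate ad libitum, for 25 weeks. Before that their ration was cut stepwise over 3 weeks, by 10% per week. Control mice were fed ad libitum. At the start the aged mice were 55 to 69 weeks old. Neither the sex of the mice nor the day on which a sample was collected is stated for any array, and both groups hold arrays with high and with low Xist. Xist was high in replicates 2 and 4 of both diets and in CR replicate 5, and low in replicates 1 and 3 of both diets. Each array stands for 1 sample. Unless stated otherwise, p-values rest on a spread between samples shared over all 24 combinations of age, diet and time. It is not the spread of these 9 arrays alone.

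Epidermal stem cells of the basal layer and the hair follicle renew the skin surface, and their clock times DNA replication, metabolism and differentiation over the day. In the clock, the activators Clock and Arntl (Bmal1) switch on genes through E-box elements, among them the repressors of the Per and Cry families. Nr1d2 (Rev-erb beta) represses Arntl, and Dbp, Tef and Hlf act through D-box elements, where Nfil3 opposes them. Calorie restriction shifts many tissues from glucose use toward the oxidation of fatty acids, and scheduled feeding can set the time of peripheral clocks.

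All values are log2 expression levels that the authors normalised with RMA, and changes are differences of group means in log2 units (CR minus control) with their standard error (SE). A gene was called at a Benjamini-Hochberg adjusted p under 0.05 over 13383 tested genes in limma, and "higher" or "lower" otherwise describes measured values. Arrays had medians between 5.53 and 5.71. The number of arrays limits the precision: the 95% confidence interval of a change reached 0.32 log2 units to either side in the median gene.

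2 of the CR arrays, replicates 3 and 4, stood apart from the rest, and replicate 4 had been proposed beforehand as lying far from its group. Replicate 4 had a median correlation of 0.895 with the other CR arrays and replicate 3 of 0.953. The other CR arrays had 0.962, 0.968 and 0.970, and the control arrays 0.989 to 0.991. The 3' minus 5' difference of the Gapdh control probe sets, a measure of RNA integrity and of labelling, was 0.53 in CR replicate 3 and 0.58 in CR replicate 4. It was 0.00, 0.03 and 0.06 in the other CR arrays and 0.05 to 0.22 in control arrays. In CR replicate 4 the genes above the upper quartile of level lay on average 0.45 log2 units below their control mean and those under the lower quartile 0.26 above it, a compressed range. The first principal component held 65.9% of the variance of the 9 arrays and set these CR arrays apart from all others. The median SD of a gene was 0.31 in CR and 0.12 in control, and 0.15 in CR without replicates 3 and 4. The part of array quality in the differences between the diets was not tested beyond the fits given beside them.

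**Figure D1:**
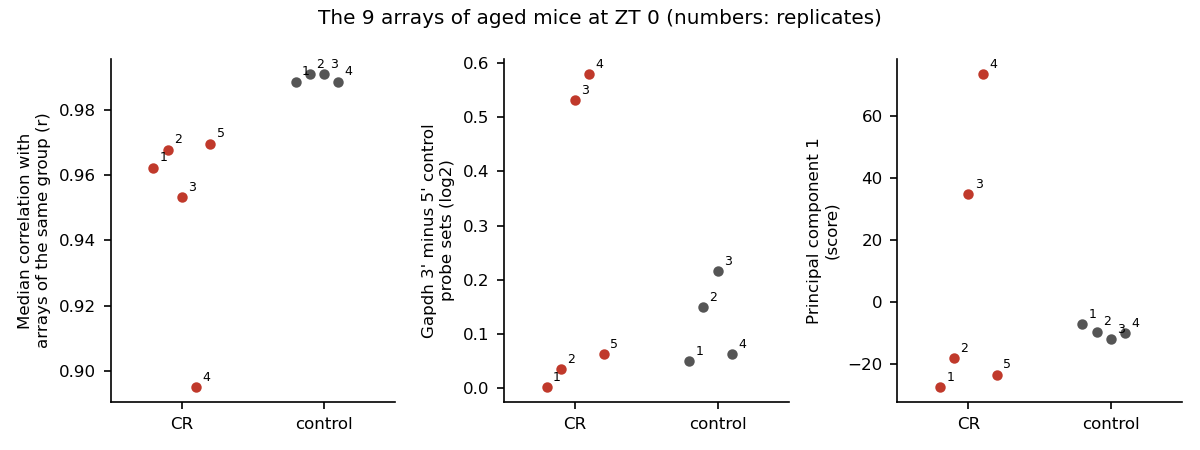
Quality of the 9 arrays, with CR left of control and each point an array labelled with its replicate number. The panels show the median correlation with arrays of the same group (r), the 3' minus 5' difference of the Gapdh control probe sets (log2) and the score on principal component 1. CR replicates 3 and 4 lie at 0.53 and 0.58 in the middle panel, above the control arrays at 0.05 to 0.22.

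Markers of basal keratinocytes were strong in both groups. Krt5, a keratin of basal keratinocytes, measured 12.23 to 12.36 in CR and 12.30 to 12.39 in control. Col17a1, a hemidesmosome collagen of basal cells, measured 12.25 to 12.36 in CR and 12.21 to 12.40 in control. Krt14 measured 12.33 to 12.47 in CR, below 12.49 to 12.54 in control. Itga6 measured 10.50 to 11.21 in CR and 10.92 to 11.31 in control, and Itgb4 9.82 to 10.82 and 10.20 to 10.71. Both lay under the control range in CR replicates 3 and 4. Trp63 measured 11.16 to 11.75 in CR and 10.99 to 11.39 in control. Krt10, a keratin of the suprabasal layers, was also strong, at 11.54 to 12.03 in CR and 11.57 to 11.75 in control. Markers of the hair follicle bulge differed in level. Krt15 measured 11.37 to 11.73 in CR and 11.63 to 11.80 in control, and Sox9 9.23 to 9.65 in CR and 8.12 to 9.36 in control. Lhx2, at 4.43 to 5.02 in CR and 4.30 to 4.69 in control, was not tested. Cd34, a marker of mouse hair follicle bulge stem cells, lay at 3.87 to 4.10 in CR and 3.84 to 3.94 in control, under the level of 4.73 below which genes were not tested. Pdgfra (fibroblasts), Tyrp1 (melanocytes), Ptprc (leukocytes), Cd207 (Langerhans cells) and Cdh5 (endothelium) were also under it. Other markers of these cell types lay above it: Col1a1 of fibroblasts measured 5.39 to 6.58 in CR and 5.72 to 5.80 in control, and Pecam1 of endothelium 5.19 to 5.73 in CR and 5.23 to 5.59 in control. Cd3g of T cells measured 5.21 to 5.58 in CR and 5.25 to 5.52 in control, and H2-Aa of antigen-presenting cells 7.23 to 7.93 in CR and 7.61 to 7.82 in control. In such bulk samples fewer cells of a type and less RNA per cell cannot be told apart.

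2 genes passed the test: Specc1 rose and C2cd4b fell under CR, together 0.0149% of the genes tested. Both groups of arrays were fully apart for each. C2cd4b encodes a nuclear protein known from cytokine-treated human endothelial cells, and Specc1 encodes cytospin B, a coiled-coil protein with a calponin homology domain. At an unadjusted p under 0.05 there were 391 genes higher under CR (2.92%) and 735 lower (5.49%). All CR arrays lay above all control arrays for 174 genes (1.3%) and below them for 118 (0.882%). The median change over all genes tested was -0.03, and 56.2% of genes were lower.

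C2cd4b measured 6.54, 7.10, 6.95, 7.08 and 6.70 in CR replicates 1 to 5, and 7.57, 7.38, 7.58 and 7.49 in control replicates 1 to 4. Every CR array lay below every control array, CR replicate 4 among the nearest to them. The change was -0.63 (SE 0.13, adjusted p = 0.028 in limma), with means of 6.87 ± 0.25 in CR (SD, n = 5) and 7.51 ± 0.09 in control (SD, n = 4). Without CR replicate 4 it was -0.68 (adjusted p = 0.021 in limma), so this call did not rest on that array. It passed without CR replicate 2 too (adjusted p = 0.013), but not without CR replicate 1, 3 or 5 or any of control replicates 1 to 4, where the change was between -0.67 and -0.55 and the adjusted p between 0.085 and 0.286. In a fit on the 9 arrays alone the adjusted p was 0.965. The 250 bases before its RefSeq start (GRCm38.p6, chr9:67759187-67759436, plus strand) are shown because it was called with and without that array. They hold neither of the clock elements searched here, the E-box CACGTG and the D-box TTATGTAA on both strands.
C2cd4b: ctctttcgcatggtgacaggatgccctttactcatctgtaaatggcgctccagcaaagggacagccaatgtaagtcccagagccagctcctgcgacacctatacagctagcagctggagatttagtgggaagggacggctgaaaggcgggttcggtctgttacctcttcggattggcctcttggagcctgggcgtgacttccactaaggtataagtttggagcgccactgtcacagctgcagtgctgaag

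Specc1 measured 7.37, 7.21, 7.73, 7.86 and 7.32 in CR replicates 1 to 5, and 6.98, 6.86, 7.0 and 6.99 in control replicates 1 to 4. Every CR array lay above every control array, and replicates 3 and 4 were the highest. The change was 0.54 (SE 0.11, adjusted p = 0.028 in limma), with means of 7.50 ± 0.28 in CR (SD, n = 5) and 6.96 ± 0.07 in control (SD, n = 4). Without CR replicate 4 it was 0.45 (adjusted p = 0.333 in limma), and the call was lost. It passed without CR replicate 2 or 5 (adjusted p = 0.0083 and 0.029), but not without CR replicate 1 or 3 or any of control replicates 1 to 4, where the change was between 0.48 and 0.57 and the adjusted p between 0.050 and 0.270. Specc1 also did not pass on the 9 arrays alone (adjusted p = 0.965 in limma), as the mean of all its probe sets, or without CR replicates 3 and 4. Over 23 settings its change ran from 0.29 to 0.61, and it passed in 9.

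Without CR replicate 4, the genes called were C2cd4b and Msrb3, again 0.0149% of those tested. Msrb3, a methionine sulfoxide reductase that repairs oxidised protein, was named after its values were seen. It measured 6.91, 5.71, 5.62, 5.18 and 7.05 in CR replicates 1 to 5, and 5.17, 5.49, 5.28 and 5.88 in control replicates 1 to 4. CR replicates 1 and 5 were high and the other CR arrays lay within the control range, so the groups overlapped. Its change was 0.64 with all arrays (SE 0.18, adjusted p = 0.502 in limma) and 0.86 without CR replicate 4 (adjusted p = 0.021 in limma).

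**Figure D2:**
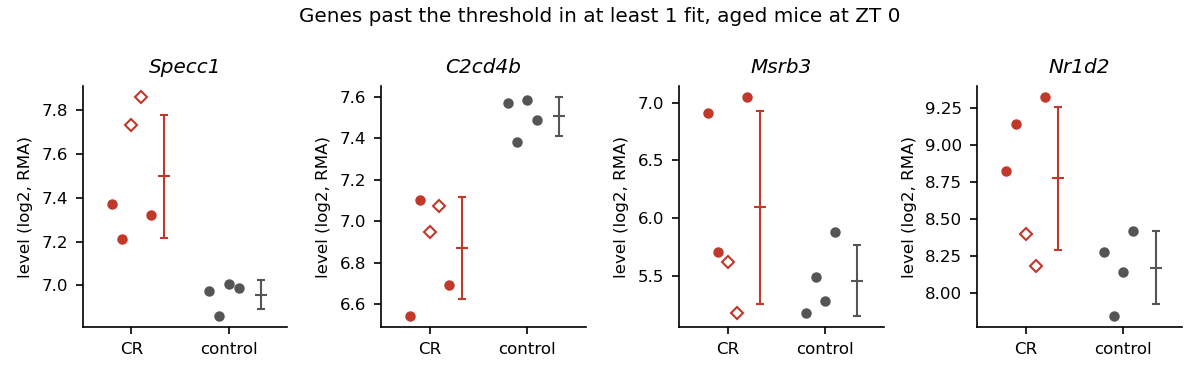
Levels (log2, RMA) of Specc1, C2cd4b, Msrb3 and Nr1d2 in each array, with CR left of control; open diamonds are CR replicates 3 and 4, and bars are the mean and SD of all arrays of the group. C2cd4b reaches at most 7.10 in CR and lies at 7.38 or above in control, and Specc1 is higher in all CR arrays.

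None of the core clock genes passed the test at ZT 0, although 16 of the 19 listed were measured above the filter. 3 were higher at an unadjusted p under 0.05 (Per3, Nr1d2 and Tef), and 1 was lower (Nfil3), beside 2.92% higher and 5.49% lower over all genes. Without CR replicate 4 these were Nr1d2 and Tef higher and Ciart lower, beside 1.94% higher and 2.47% lower over all genes. The list's median change was 0.01, beside -0.03 over all genes. With all arrays the other 12 had unadjusted p-values above 0.05.

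Nr1d2, the repressor of Arntl, measured 8.83, 9.14, 8.39, 8.18 and 9.33 in CR replicates 1 to 5, and 8.28, 7.84, 8.14 and 8.42 in control replicates 1 to 4. CR replicates 1, 2 and 5 lay above all control arrays, and replicates 3 and 4 lay among them. The change was 0.60 (SE 0.20, 95% confidence interval 0.21 to 1.0, adjusted p = 0.502 in limma), and 0.75 without CR replicate 4 (adjusted p = 0.651).

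Per3, a period gene whose promoter is bound through D-boxes, measured 5.93, 6.03, 7.27, 8.04 and 6.39 in CR replicates 1 to 5, and 5.72, 5.85, 6.14 and 5.66 in control replicates 1 to 4. The high values were those of the arrays that stood apart. Its change of 0.89 (SE 0.30, adjusted p = 0.502 in limma) was 0.56 without CR replicate 4, 0.27 without CR replicates 3 and 4, and 0.15 as the mean of all its probe sets.

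Tef, an activator at D-boxes, measured 7.74, 8.20, 8.41, 8.15 and 8.24 in CR replicates 1 to 5, and 7.96, 7.72, 7.77 and 7.75 in control replicates 1 to 4. CR replicate 1 was within the control range and the other CR arrays were above it, for a change of 0.35 (SE 0.15, adjusted p = 0.557 in limma). Dbp, of the same family, measured 5.77, 6.75, 5.91, 6.28 and 6.01 in CR replicates 1 to 5, and 6.07, 5.72, 5.79 and 5.88 in control replicates 1 to 4. These groups overlapped, and the interval of the change ran from -0.31 to 0.86.

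Nfil3, the repressor at D-boxes, measured 8.65, 8.98, 8.76, 8.05 and 8.75 in CR replicates 1 to 5, and 9.18, 9.33, 9.29 and 9.04 in control replicates 1 to 4. Ciart, a repressor of the Clock and Arntl complex, measured 5.92, 5.97, 6.26, 6.36 and 6.11 in CR replicates 1 to 5, and 6.40, 6.43, 6.42 and 6.44 in control replicates 1 to 4. For both genes every CR array lay below every control array. The change was -0.57 for Nfil3 (SE 0.28, adjusted p = 0.591 in limma) and -0.30 for Ciart (SE 0.15, adjusted p = 0.593).

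Cry1, a cryptochrome repressor, measured 7.88, 7.01, 6.38, 4.84 and 7.26 in CR replicates 1 to 5, and 6.96, 7.38, 7.40 and 6.88 in control replicates 1 to 4. Replicate 4 alone lay far below the rest, and the change of -0.48 with it (SE 0.34) was -0.02 without it. Arntl, the activator, had overlapping groups and a change of -0.32 (SE 0.44, interval -1.18 to 0.55). Per1, whose promoter drives the reporter of these mice, had a change of 0.10 (SE 0.23, interval -0.35 to 0.55), which did not pass the test.

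The promoters of Ciart and Per3 are shown because the elements named above lie in them, as letters that match and not as bound sites. They are the 250 bases before the RefSeq start (GRCm38.p6), at chr3:95882229-95882478, minus strand, for Ciart and at chr4:151044666-151044915, minus strand, for Per3. Capitals mark 3 E-boxes in Ciart and 2 D-boxes in Per3. Over 32817 windows of this length, 6.02% held an E-box and 0.817% a D-box. Tef and Cry1 had 1 E-box in each window, and the windows of Nr1d2, Nfil3, Dbp and Specc1 had neither element.
Ciart: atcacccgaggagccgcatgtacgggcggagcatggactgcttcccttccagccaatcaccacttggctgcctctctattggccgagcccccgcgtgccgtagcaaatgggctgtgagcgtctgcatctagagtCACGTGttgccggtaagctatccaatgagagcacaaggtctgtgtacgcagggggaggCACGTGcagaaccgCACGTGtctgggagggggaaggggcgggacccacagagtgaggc
Per3: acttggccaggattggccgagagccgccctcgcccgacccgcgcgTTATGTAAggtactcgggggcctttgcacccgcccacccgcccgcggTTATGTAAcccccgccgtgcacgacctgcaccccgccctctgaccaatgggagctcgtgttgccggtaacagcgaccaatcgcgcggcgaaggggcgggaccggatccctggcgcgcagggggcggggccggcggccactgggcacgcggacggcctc

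**Figure D3:**
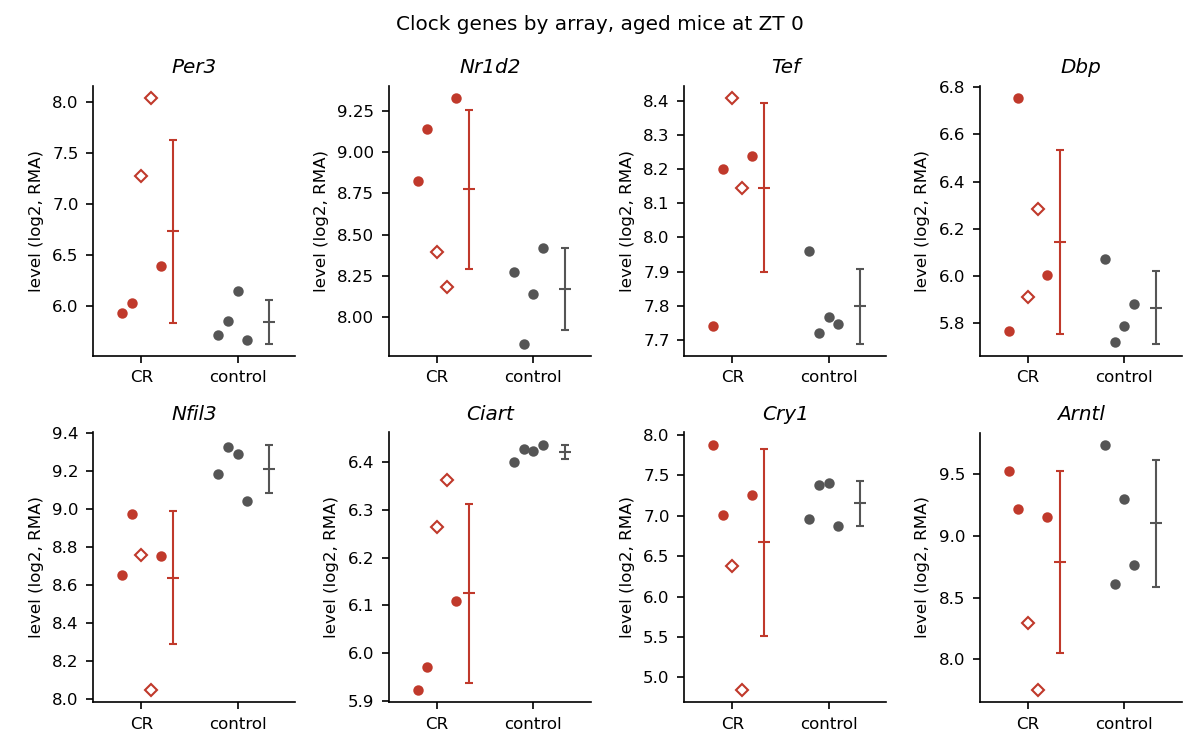
Levels (log2, RMA) of 8 clock genes in each array, with CR left of control; open diamonds are CR replicates 3 and 4, and bars are the mean and SD of all arrays of the group. Nfil3 and Ciart are lower in all CR arrays, Nr1d2 is above the control arrays in CR replicates 1, 2 and 5, and the high Per3 values belong to replicates 3 and 4.

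No member of any of the 43 gene lists was called by limma, of 579 distinct members tested. In the glycolysis list 8 of 15 tested members were lower at an unadjusted p under 0.05 and none higher, with a median change of -0.37 beside -0.03 over all genes, of which 5.49% were lower. Pfkl, a subunit of phosphofructokinase, measured 9.36, 9.56, 9.21, 8.48 and 9.60 in CR replicates 1 to 5, and 10.18, 9.81, 10.20 and 9.95 in control replicates 1 to 4. Tpi1, triosephosphate isomerase, measured 9.69, 9.99, 10.05, 9.32 and 9.79 in CR replicates 1 to 5, and 10.40, 10.34, 10.76 and 10.21 in control replicates 1 to 4. Both were lower in every CR array, also in those that did not stand apart. The changes were -0.79 for Pfkl (SE 0.25) and -0.66 for Tpi1 (SE 0.21), both with an adjusted p of 0.502 in limma. Ldha, lactate dehydrogenase A, was also lower in all CR arrays, by a change of -0.40 (SE 0.13, adjusted p = 0.502). Slc2a1, the glucose transporter GLUT1, had a change of 0.08 and Gapdh of 0.01. Without CR replicate 4, 3 of the 15 were lower at an unadjusted p under 0.05, beside 2.47% of all genes, and the median was -0.23. Without CR replicates 3 and 4, 2 were lower, beside 5.13% of all genes, and the median was -0.21.

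The unfolded protein response raises the folding capacity of the endoplasmic reticulum. In its list 8 of 19 members were lower at an unadjusted p under 0.05 and none higher (median -0.29). Over all genes 5.49% were lower. Pdia6, a protein disulfide isomerase, measured 8.97, 8.82, 8.80, 8.34 and 9.01 in CR replicates 1 to 5, and 9.10, 9.68, 9.54 and 9.10 in control replicates 1 to 4. The groups were apart, but CR replicate 5 lay close to the lowest control arrays. Its change was -0.57 (SE 0.15, adjusted p = 0.502 in limma). Pdia4, of the same enzyme family, had a change of -0.29 (SE 0.12, adjusted p = 0.551) and Creld2, a secreted folding factor, of -0.79 (SE 0.23, adjusted p = 0.502). Each lay below all control arrays in all CR arrays. Creld2 was lowest in CR replicates 3 and 4, at 8.17 and 7.51. Its change was -0.49 without replicate 4 and -0.22 without replicates 3 and 4. For the list, 5 members were lower at an unadjusted p under 0.05 without replicate 4 (median -0.20), beside 2.47% of all genes. Without replicates 3 and 4, 2 members were lower (median -0.11), beside 5.13% of all genes.

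Hsph1, a chaperone of the heat shock list, measured 8.60, 8.47, 8.18, 7.45 and 8.42 in CR replicates 1 to 5, and 8.75, 8.96, 9.15 and 9.02 in control replicates 1 to 4. All CR arrays lay below the control arrays, with a change of -0.74 (SE 0.23, adjusted p = 0.502 in limma). In this list 6 of 14 members were lower at an unadjusted p under 0.05 with all arrays (median -0.21), beside 5.49% of all genes. Without CR replicate 4, 1 was lower (median -0.10), beside 2.47% of all genes. Without CR replicates 3 and 4, 0 were lower (median -0.10), beside 5.13% of all genes.

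Lists of mitochondrial and protein turnover genes rested more on replicate 4. In the list of oxidative phosphorylation 6 of 19 members were lower at an unadjusted p under 0.05 with it (median -0.25) and 0 without it (median -0.09). The proteasome list went likewise, with 6 of 21 (median -0.24) and 0 (median -0.04). Over all genes 5.49% were lower with replicate 4 and 2.47% without it. The mean level of the proteasome list was 9.23 in CR replicate 4, against 9.99 to 10.24 in the other CR arrays and 10.10 to 10.29 in control.

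Lists of fatty acid use and lipid synthesis had positive median changes. Of 14 tested members of the fasting and PPAR list, 3 were higher (Cpt1a, Eci2 and Acot2) and 1 lower (Acadvl, a dehydrogenase of fatty acid oxidation, with a change of -0.46) at an unadjusted p under 0.05 (median 0.19). Over all genes 2.92% were higher and 5.49% lower. Cpt1a, which brings fatty acids into mitochondria for oxidation, measured 9.43, 9.66, 9.12, 9.32 and 9.19 in CR replicates 1 to 5, and 8.92, 9.0, 8.86 and 8.87 in control replicates 1 to 4. It was higher in all CR arrays, by 0.43 (SE 0.18, adjusted p = 0.559 in limma). Eci2, an isomerase of the oxidation of unsaturated fatty acids, had a change of 0.59 (SE 0.26, adjusted p = 0.569) and Acot2, a mitochondrial thioesterase, of 0.43 (SE 0.20, adjusted p = 0.586). Without CR replicate 4, 3 members were higher, beside 1.94% of all genes, and 0 lower (median 0.21). Without CR replicates 3 and 4, 6 members were higher, beside 486 of the 13383 genes tested, and 0 lower (median 0.24). In the list of fatty acid and triglyceride synthesis, 2 of 14 members were higher at an unadjusted p under 0.05 (Me1 and Gpam) and 0 lower, with a median of 0.11 and changes from -0.45 to 0.47. Me1, malic enzyme and a source of NADPH for lipid synthesis, measured 9.97, 9.75, 9.79, 9.23 and 9.82 in CR replicates 1 to 5, and 9.14, 9.24, 9.16 and 9.42 in control replicates 1 to 4. All CR arrays other than replicate 4 were above the control arrays, and the change was 0.47 (SE 0.17, adjusted p = 0.502). Fasn and Scd1, enzymes of fatty acid synthesis, had changes of 0.13 and 0.09.

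In the epidermal lists, 1 of 16 basal members was higher and 1 lower at an unadjusted p under 0.05, and the same counts held for 19 differentiation members, beside 2.92% higher and 5.49% lower over all genes. Klf4, a transcription factor of epidermal barrier formation, measured 11.05, 11.31, 11.18, 11.27 and 11.05 in CR replicates 1 to 5, and 11.63, 11.43, 11.50 and 11.35 in control replicates 1 to 4. It was lower in all CR arrays, with a change of -0.30 (SE 0.09, adjusted p = 0.502 in limma). Sfrp1, a secreted Wnt antagonist in the Wnt list, measured 7.62, 7.87, 7.85, 7.61 and 7.89 in CR replicates 1 to 5, and 8.39, 8.30, 8.57 and 8.25 in control replicates 1 to 4. These groups were apart too, with a change of -0.61 (SE 0.17, adjusted p = 0.502). Of the mitosis list 0 of 22 members, and of the DNA replication list 2 of 24, were lower at an unadjusted p under 0.05, beside the same 5.49%.

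**Figure D4:**
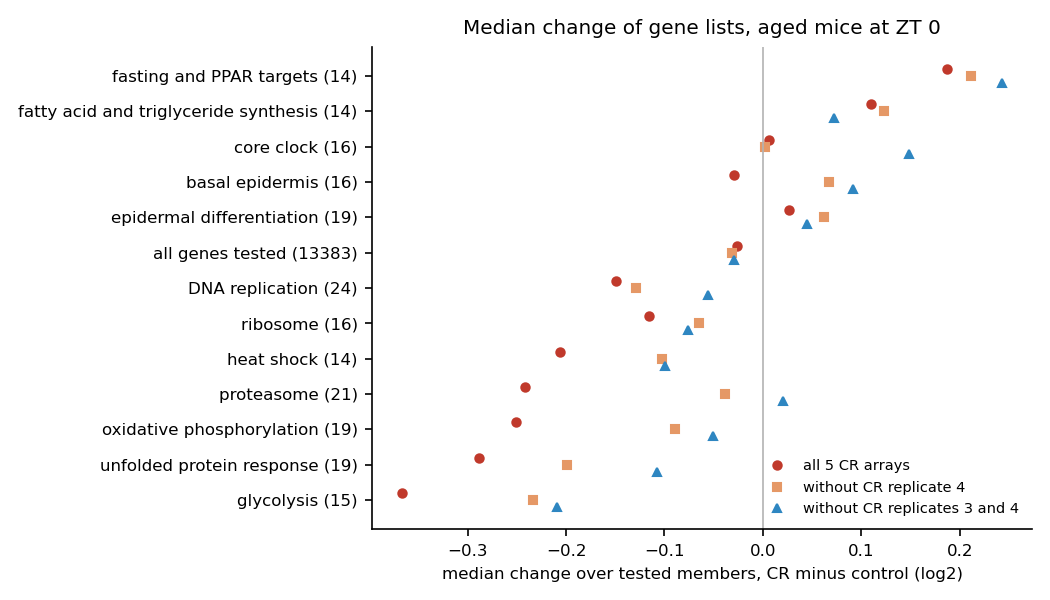
Median change (CR minus control, log2) over the tested members of 12 gene lists and over all genes, with the number tested in parentheses. Circles use all 5 CR arrays, squares leave out replicate 4 and triangles replicates 3 and 4. The oxidative phosphorylation list moves from -0.25 to -0.09 without replicate 4, and the glycolysis list from -0.37 to -0.23.

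The glucocorticoid-induced list was examined because food restriction is known to raise corticosterone in mice. None of its 14 tested members passed the test. At an unadjusted p under 0.05, 1 was lower (Cebpd), beside 5.49% of all genes, and the median change was 0.00. Cebpd, a transcription factor of the stress response, measured 6.92, 7.78, 7.06, 6.48 and 7.17 in CR replicates 1 to 5, and 7.86, 7.40, 7.79 and 7.61 in control replicates 1 to 4, with overlapping groups. Fkbp5, a target of the glucocorticoid receptor, had a change of 0.17 (SE 0.35, interval -0.52 to 0.86) and Tsc22d3 of -0.46 (SE 0.27, interval -1.0 to 0.08).

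Weighting the arrays by their agreement with their own group changed the count most. limma's array weights are estimated from the deviations of the same arrays, and here the estimation stopped before convergence. CR replicate 4 received a weight of 0.08 and replicate 3 of 0.18. In that fit 1011 genes were called, 343 higher (2.56%) and 668 lower (4.99%), 7.55% of those tested. The weights of all other arrays of the series differed too, between 0.025 and 10.8. Leaving out CR replicates 3 and 4 instead, a fit added after the data had been seen, called 7 genes (0.0523%): C2cd4b fell, and Msrb3, Aifm2, Hsbp1l1, Mettl6, Tec and the unnamed transcript C030013C21Rik rose. In a fit of the remaining 7 arrays alone no gene was called by limma, while 3140 had an unadjusted p under 0.05 (23.5%), and the smallest adjusted p was 0.078.

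The genes described from the fit with array weights were chosen after their values were seen. Nr1d2 rose by 0.94 (SE 0.17, adjusted p = 0.00025 in limma with array weights), and Ciart, the other clock gene called there, fell by 0.37 (SE 0.12, adjusted p = 0.041). Ocln, the tight junction protein occludin, measured 8.89, 8.37, 7.06, 5.86 and 8.38 in CR replicates 1 to 5, and 6.97, 7.39, 7.81 and 7.85 in control replicates 1 to 4. CR replicates 1, 2 and 5 lay above the control arrays and replicate 4 far below, so its change was 0.21 with equal weights and 0.89 with array weights (adjusted p = 0.013). Cxcl12, a chemokine, measured 9.73, 9.10, 7.30, 6.41 and 9.50 in CR replicates 1 to 5, and 7.87, 8.51, 8.60 and 8.52 in control replicates 1 to 4. Its change was 0.03 with equal weights (SE 0.41, adjusted p = 0.990) and 0.95 with array weights (adjusted p = 0.030), in the same pattern of arrays.

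With array weights 37 of 579 distinct list members were called, beside 7.55% of all genes. Among these members Me1, Gpam and Lpin1 of lipid synthesis and Acot2 of the fasting list rose. Tpi1 and Pfkl of glycolysis, Pdia6 and Pdia4 of the unfolded protein response, Hsph1, Klf4 and Sfrp1 fell. Per list these were 3 of 14 members of lipid synthesis, 2 of 15 of glycolysis and 2 of 19 of the unfolded protein response, beside 2.56% called higher and 4.99% called lower over all genes in the same fit. Of the oxidative phosphorylation and proteasome lists 0 members were called with these weights in limma. Without CR replicates 3 and 4, 0 members of either list were lower at an unadjusted p under 0.05, beside 5.13% of all genes. Thy1, a surface protein of fibroblasts and T cells, fell by 0.81 with array weights (adjusted p = 0.036). It measured 7.78, 8.47, 7.59, 8.63 and 8.45 in CR replicates 1 to 5, and 8.55, 9.20, 9.17 and 9.29 in control replicates 1 to 4, with CR replicate 4 just above control replicate 1. Mean levels of the fibroblast list were 5.91 to 6.54 in CR and 6.30 to 6.40 in control over 8 genes, and those of the T cell list 5.40 to 5.97 in CR and 5.58 to 5.74 in control over 10 genes. Among CR arrays both were highest in replicates 3 and 4, and their part in the result was not tested.

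Whether the diet difference at ZT 0 differed from that at the other times was tested against the mean of the differences at ZT 4, 8, 12, 16 and 20. In limma 0 genes passed, 1206 had an unadjusted p under 0.05 (9.01%), and the 6 smallest p-values belonged to Pdia6, Hsph1, Nr1d2, Sphk2, Specc1 and Creld2, with adjusted p-values from 0.379 to 0.412. C2cd4b had a change of -0.63 at ZT 0, -0.14 at ZT 4, -0.30 at ZT 8, 0.00 at ZT 12, 0.00 at ZT 16 and -0.12 at ZT 20. Specc1 had 0.54 at ZT 0 and between -0.05 and 0.17 at the other times. Both had their farthest value from 0 at ZT 0. They had been picked by their ZT 0 values, so this profile cannot show that the change belongs to that time. The test of the difference did not pass in limma (adjusted p = 0.435 for C2cd4b and 0.379 for Specc1).

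At ZT 4 the difference includes aged control replicate 2, which stood apart with a median correlation of 0.908 and a Gapdh 3' minus 5' difference of 0.81. In a fit without it, chosen with the data in view, the ZT 4 change was -0.28 for C2cd4b, 0.19 for Specc1 and -0.26 for Pdia6. It was then 0.66 for Nr1d2, 1.57 for Dbp and 1.21 for Per3. The clock genes had other profiles. Nr1d2 had a change of 0.60 at ZT 0, 0.62 at ZT 4, -0.11 at ZT 8, -0.34 at ZT 12, -1.09 at ZT 16 and -0.48 at ZT 20. Dbp had 0.28 at ZT 0, 1.57 at ZT 4, -0.06 at ZT 8, -1.60 at ZT 12, -1.33 at ZT 16 and -0.61 at ZT 20. Both were positive at ZT 0 and ZT 4 and negative from ZT 8 on. At ZT 8 the changes were smaller than their SE (0.23 for Nr1d2 and 0.34 for Dbp), as was that of Dbp at ZT 0 (SE 0.29). Those signs are therefore uncertain. Per3 had 0.89 at ZT 0, 0.80 at ZT 4, 0.78 at ZT 8, -0.68 at ZT 12, -1.60 at ZT 16 and -0.83 at ZT 20. Pdia6 had -0.08 at ZT 4, -0.11 at ZT 8, -0.05 at ZT 12, 0.43 at ZT 16 and 0.19 at ZT 20.

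**Figure D5:**
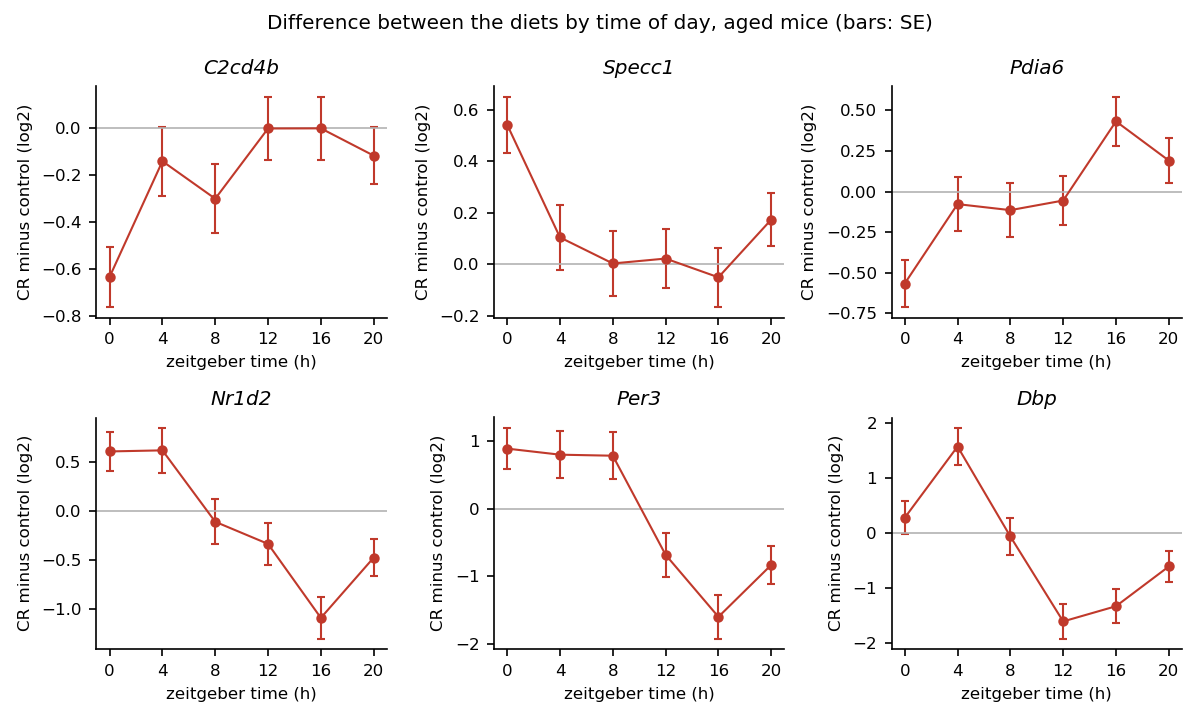
Difference between CR and control (log2, CR minus control) in aged mice at each of 6 zeitgeber times (h) for 6 genes, with bars of 1 SE. C2cd4b and Specc1, which were picked by their ZT 0 values, lie farthest from 0 at ZT 0 (-0.63 and 0.54). Dbp reaches 1.57 at ZT 4 and -1.60 at ZT 12.

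The same diet difference was compared with that of adult mice, aged 47 to 57 weeks, at ZT 0 (5 CR and 4 control arrays). The difference between the ages passed for 1195 genes (187 higher, 1.4%, and 1008 lower, 7.53%). The adult control arrays of this time also stood apart from each other, with median correlations of 0.892 to 0.941. The Gapdh 3' minus 5' difference was 1.0 and 0.63 in adult control replicates 1 and 2, and with this difference as a covariate 5 genes passed. The count was 5 without adult control replicate 1, 2556 without adult control replicate 3 and 1899 without adult control replicate 4. It was 1957, 645 and 136 without aged CR replicate 2, 3 or 4, and 770 and 641 without aged control replicate 2 or 4. The 5 genes called without adult control replicate 1 were C2cd4b, Specc1, Fbxw9, Zdhhc13 and Prpf40b. C2cd4b had a change of -0.63 in aged mice and 0.35 in adult mice (difference -0.98, SE 0.18, adjusted p = 0.0020 in limma). Its adult means were 7.22 ± 0.14 in CR (SD, n = 5) and 6.87 ± 0.24 in control (SD, n = 4). Specc1 had a change of 0.54 in aged mice and -0.45 in adult mice, with adult means of 6.92 ± 0.13 in CR (SD, n = 5) and 7.36 ± 0.24 in control (SD, n = 4). The difference was 0.99 (SE 0.16, adjusted p = 0.00013 in limma). For both genes the adult difference ran the other way. C2cd4b and Specc1 had been picked by their change in aged mice, which is part of this test. Its p-values for them are therefore not independent support. Zdhhc13, a palmitoyltransferase needed for normal hair and skin in mice, had a change of 0.35 in aged mice and -0.68 in adult mice, and Fbxw9, an F-box protein, of -0.31 in aged mice and 0.52 in adult mice. Nr1d2 had 0.60 in aged mice and 0.47 in adult mice, a difference of 0.13 (SE 0.28) that did not pass.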

How the data were processed

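Expression in epidermal stem cells was measured on 49 Affymetrix arrays of aged and 53 of adult mice. The deposited log2 values were made by the authors with RMA, a quantile-based normalization, as named without a version in the submitters' processing notes (per the labels). Per the labels' protocols, cDNA from 25 ng of RNA was amplified over 17 cycles. Levels were used as deposited, with no rescaling. Of 45140 probe sets, 28898 carried 1 gene symbol, 551 several and 15588 none, and 103 were controls. The brightest probe set of a gene stood for it (17097 genes), and those with a mean under the 30th percentile of probe set means (4.73) were not tested, which left 13383.

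limma 3.58.1 in R 4.3.3 fitted 1 mean per combination of age, diet and time (24 in all) to all arrays, which then share 1 estimate of the spread, and adjusted p-values by Benjamini-Hochberg over all genes tested. Contrasts were CR minus control at ZT 0 in aged mice, this minus the mean at the 5 other times, and this minus the same contrast in adult mice. The test was checked on simulated data with independent noise and, for each gene, the same spread in all groups. The simulation held neither the larger spread of CR nor arrays that stand apart. It cannot show how the test behaves with them. The members and lists (43 lists, 733 genes, 579 of them tested) were chosen with earlier results of these data known.

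Genes were named by a rule: the 12 largest rises and falls past the threshold with and without CR replicate 4, all core clock and glucocorticoid-induced genes, for lists with 3 or more members called their 4 smallest p, and for each difference the 8 smallest p past the threshold, or 6 if none passed. Genes of other lists and those named from the fit with array weights were chosen after their values were seen. Replicate numbers are shared between the diets in the labels. Same-numbered arrays did not deviate together (correlations of -0.06, -0.05, -0.02 and 0.04), so numbers were not taken as pairs. The Xist minus Y-linked level did go with the number. It was -2.50, 7.25, -1.45 and 5.86 in CR replicates 1 to 4, and -2.26, 6.91, -2.71 and 6.77 in control replicates 1 to 4. Whether the numbers mark pairs is therefore not settled, and a fit with them as a block is among the alternatives. Alternatives were the 9 arrays alone, a replicate block, leaving out arrays, other filters and probe set rules, a common median, array weights, a trend with a robust prior, an Xist covariate and a stricter threshold. The fits without both CR arrays that stood apart, on 7 arrays, with the Gapdh covariate and without single adult or ZT 4 arrays were chosen after seeing the data. Promoter sequences are from RefSeq (GRCm38.p6). Symbols are those of the platform annotation, which can be old.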

Additional observations from a re-analysis of the deposited data

Results flagged for a closer look

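In groups of 4 or 5 arrays, chance sets 1 array apart in about 1 of 20 groups by the criterion used here (Dixon's), and 2 of 90 groups tested did so. Sgk1, a kinase induced by glucocorticoids, measured 8.00 in CR replicate 4, against 9.98 to 10.75 in the other CR arrays. The median correlation of CR replicate 4 with its own group was 0.895, against 0.953 to 0.970 in the others. This array had been proposed beforehand as lying far from its group, so flags that fall on it are no independent finding. The 90 groups also share arrays and are not independent of each other.

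The diet difference at ZT 0 differed between aged and adult mice, by limma's test of the difference, for these named genes. The differences (aged minus adult) were -0.98 for C2cd4b, -0.83 for Fbxw9, -0.87 for Zfp219, -1.25 for Kctd2, -0.82 for Hnrnpr and -0.69 for Cst3. They were 0.99 for Specc1 and 1.03 for Zdhhc13. Among the clock and glucocorticoid lists they were 1.58 for Per3, -0.92 for Hlf, an activator at D-boxes, and -0.66 for Cdkn1c, a cell cycle inhibitor. C2cd4b, Specc1, Fbxw9 and Zdhhc13 also passed without adult control replicate 1, where the count over all genes was 5 in place of 1195. The other 7 genes did not pass without that array.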

How the results depend on the processing

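The number of genes called for the diet effect at ZT 0 was 2. It was 0 in limma on the 9 arrays alone (523 at an unadjusted p under 0.05), 0 there with the replicate number as a replicate block (470), 0 there without CR replicate 4 (790), 0 on 7 arrays without CR replicates 3 and 4 (3140), and 0 with the Gapdh 3' minus 5' level as a covariate. It was 0 at an adjusted p under 0.01, 1 with the mean of all probe sets of a gene, 7 without CR replicates 3 and 4, and 1011 with array weights. Leaving out single arrays gave 0 to 2. It was 2 with no filter, the 50th percentile, a common median, a trend with a robust prior and the Xist covariate. For the difference from the other times, 0 genes passed except with array weights (254) and without CR replicates 3 and 4 (4: Nr1d2, Aifm2, Msrb3 and C030013C21Rik). For the difference between the ages, 1195 genes passed. This was 788 with a common median, 3518 with array weights, 109 at an adjusted p under 0.01, 21 without CR replicates 3 and 4, and 5 with the Gapdh covariate. Leaving out single arrays gave 5 to 2556. Of 579 list members 0 were called, except 37 with array weights, beside 7.55% of all genes in that fit. Hnrnpr (aged minus adult) reversed with the mean of all probe sets, at 0.057. The cause of these moves was not tested. The fits on 9 or 7 arrays changed both the number of arrays and the spread used, which cannot be told apart. The spread of CR replicates 3 and 4 and the 4 or 5 arrays per group limit what could be called, and a change that did not pass is not shown to be absent.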
